A study of Danio rerio with 36 samples.

Results

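The comparison described here sets re-colonized zebrafish larval heads against conventional ones in the first of 2 RNA-sequencing experiments. All libraries of these groups in experiment 1 were taken, 12 of the 36 libraries in the series: 6 re-colonized and 6 conventional. Both groups came from a mixed wild-type zebrafish line and were harvested at 10 days post fertilization, and each library was made from pooled heads cut in front of the swim bladder. Re-colonized larvae were given microbes back on day 1 after axenic derivation, and conventional larvae, the study's controls, were colonized in the usual way. The contrast asks what axenic derivation leaves behind once microbes have been returned. Axenic heads of experiment 1 (6 libraries) are given as the level without microbes. Experiment 2, with 7 re-colonized and 7 conventional libraries of the same line, age and tissue, gives a second reading. Experiment 1 used ribosomal-RNA-depleted total RNA with stranded libraries, and experiment 2 used polyA-selected RNA.

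Microbes that colonize a fish larva settle on its outer and inner surfaces: the skin, the gills, the mouth and pharynx, and the gut. Epithelia of these surfaces answer with mucins, antimicrobial enzymes and oxidant-producing enzymes, and macrophages and neutrophils carry much of the wider response. In larvae kept without microbes, fat and cholesterol metabolism and the maturation of tissues are known to differ as well. A head cut in front of the swim bladder holds brain, eyes, jaw cartilage, gills, skin, muscle, the pharynx and whatever part of the foregut lies there.

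The 12 libraries held 11716737 to 14442810 assigned reads each. The total was 12450000 ± 484400 in re-colonized and 13170000 ± 961200 in conventional libraries (mean ± SD, n = 6 each), a difference of exact permutation p = 0.132, two-sided. Structural RNAs such as the signal recognition particle RNA took 51.2% ± 3.75 of reads in re-colonized and 53.1% ± 2.5 in conventional libraries (SD, n = 6 each; exact permutation p = 0.335). Markers of the labelled tissue were present in both groups: the neuronal gene elavl3 averaged 78.5 and 77.5 CPM (counts scaled to a common library size) in re-colonized and conventional heads, the rod opsin rho 574 and 497 CPM, and the cartilage collagen col2a1a 157 and 136 CPM. Genes of digestive organs were present too. The exocrine pancreas protease gene prss1 averaged 1455 and 1325 CPM in the same order, the enterocyte gene fabp2 61.1 and 56.2 CPM and the liver gene tfa 113 and 103 CPM, so the pools also held RNA of digestive tissue. On the first principal component of the 12 libraries, which held 16.5% of the variance, the groups overlapped, and re-colonized library B lay farthest out at -47.5 against -22.8 to 26.0 for the others. The names of the re-colonized and axenic libraries carry the tag L6 and those of the conventional libraries L7, so the contrast of axenic with conventional heads spans the tags as well and that of axenic with re-colonized heads does not. The labels do not say what this tag stands for, and a step that differed between tags cannot be told apart from the groups. Whether pools of a group stem from different spawns is not stated either, and the p-values reflect pool-to-pool variation only.

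Of 19727 genes tested, 3 passed an adjusted p of 0.05 (0.0152% of genes; edgeR quasi-likelihood test with Benjamini-Hochberg adjustment): si:ch211-69b7.6 and si:dkey-7c18.24 rose and clca1 fell in re-colonized heads. For scale, the same fit called 3077 genes (15.6%) between axenic and conventional heads and 3342 genes (16.9%) between axenic and re-colonized heads, contrasts that share libraries with the present one. At an unadjusted p below 0.05 there were 945 genes (4.79%), 542 higher and 403 lower in re-colonized heads. Libraries of the groups did not overlap for 32 genes (0.162%), 14 higher and 18 lower, all 3 called genes among them. All other genes named here were chosen after their values were seen, or as cell type markers with earlier results of these data known. None of them was called in this fit, and other settings called some of them.

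The single gene that fell, clca1, encodes a member of the calcium-activated chloride channel regulator family; in mammals CLCA1 is secreted by goblet cells into mucus. It lies on the plus strand of chromosome 15, at 14109652 to 14120432 in GRCz11. Its level was 1.34, 1.51, 1.71, 1.65, 0.569 and 2.27 CPM in re-colonized libraries B, D, E, F, G and H. In conventional libraries A, B, C, F, G and H it was 6.02, 5.06, 7.44, 5.6, 6.15 and 2.84 CPM. Every re-colonized library lay below every conventional one, the closest being re-colonized H and conventional H. The log2 fold change was -1.86 (SE 0.28; adjusted p = 0.0128, edgeR). Axenic heads held 0.441 ± 0.315 CPM (SD, n = 6), from 0.142 to 0.984, and re-colonized library G at 0.569 lay inside that range while the other five lay above it. In experiment 2 the estimate was also negative, at -2.74 with an unadjusted p = 0.00337, and did not pass the adjusted threshold. There the re-colonized libraries ran from 0 to 0.393 CPM with a median of 0.11. Conventional library 4 held 3.63 CPM and the other conventional ones 0.0475 to 0.808, with a median of 0.664 over the group. The groups thus overlapped, at a lower level than in experiment 1.

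The gene si:dkey-7c18.24, on the plus strand of chromosome 20 at 46039591 to 46043406, has no assigned function in the files. Its level in re-colonized libraries ran from 163 (E) to 292 CPM (D) with a median of 275. In conventional libraries it ran from 77.7 (A) to 157 CPM (B) with a median of 124. The lowest re-colonized library, E, stood just above the highest conventional one, B. The log2 fold change was 1.06 (SE 0.17; adjusted p = 0.0134, edgeR). Axenic heads averaged 96.4 ± 30.3 CPM (SD, n = 6), from 69.6 to 150, a range that holds 5 of the 6 conventional libraries and 0 of the 6 re-colonized ones.

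For si:ch211-69b7.6, on the minus strand of chromosome 11 at 11891580 to 11910226 and likewise without an assigned function, re-colonized libraries B, D, E, F, G and H held 27.3, 28.8, 34.5, 40.6, 34.3 and 38.4 CPM. Conventional libraries A, B, C, F, G and H held 13.9, 22.3, 19.8, 15.9, 20.3 and 21.8 CPM. All re-colonized libraries were higher, with a log2 fold change of 0.84 (SE 0.13; adjusted p = 0.0134, edgeR). Axenic heads, at 19.9 ± 3.82 CPM (SD, n = 6), lay at the conventional level. Neither of the genes that rose showed the difference in experiment 2, where the log2 fold change was -0.04 for si:dkey-7c18.24 (unadjusted p = 0.858) and -0.15 for si:ch211-69b7.6 (unadjusted p = 0.522). The difference between experiments was not past the threshold for either, with an adjusted p = 0.217 for both in a fit of all 36 libraries with edgeR. With limma voom it passed for si:ch211-69b7.6, at 1.08 on the log2 scale (adjusted p = 0.0415).

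**Figure D1:**
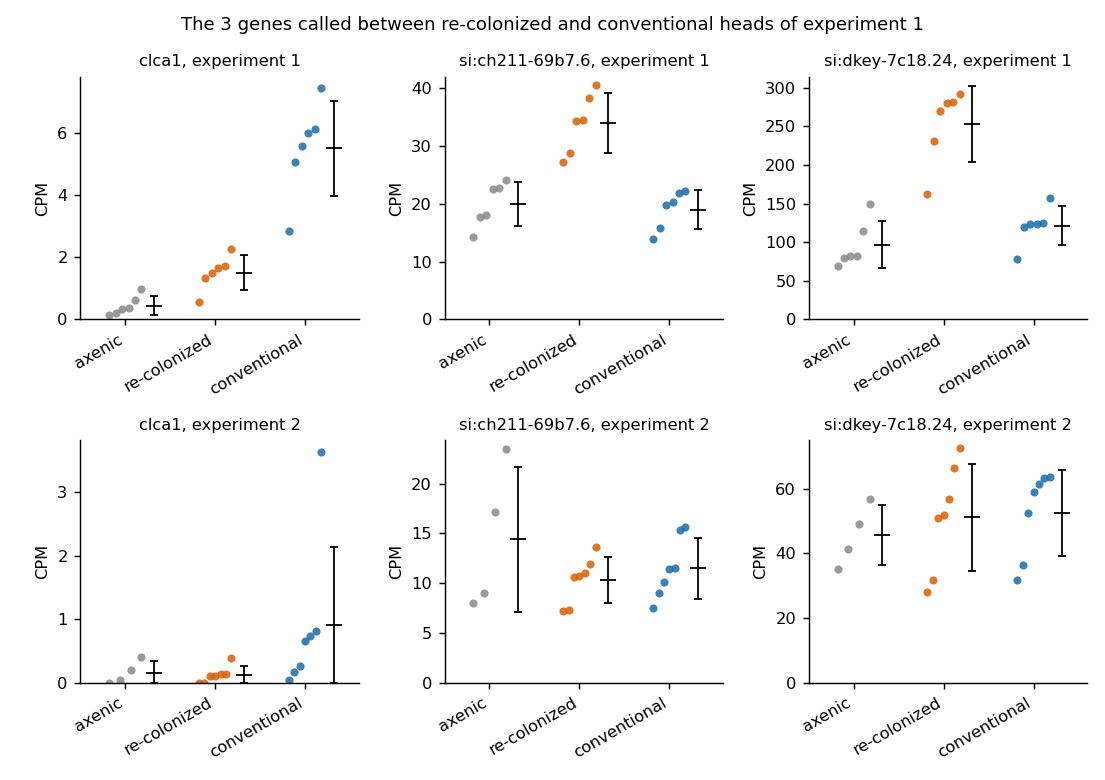
CPM of clca1, si:ch211-69b7.6 and si:dkey-7c18.24 in each library of experiment 1 (upper row) and experiment 2 (lower row), by group; points are libraries and bars give the mean ± SD. In experiment 1 the re-colonized points do not overlap the conventional ones for any of the 3 genes, and in experiment 2 they do.

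Some of these calls were lost when a single library was left out. Without re-colonized library F none of the 3 genes was called (977 genes at an unadjusted p below 0.05), with edgeR adjusted p-values of 0.0538 for clca1 and 0.0602 for both others. Without conventional library F, clca1 alone was called, at 0.047. Without re-colonized library D or G, 2 genes were called, and without conventional library B 8 genes. DESeq2 called 10 genes, the 3 above and dsg2.1, cd74a, ctsl.1, mslna, si:ch211-157c3.4, CDHR2 and plac8.2. Of these, plac8.2 held at most 0.707 CPM in re-colonized and 0.880 to 4.19 CPM in conventional libraries, without overlap (log2 fold change -2.60, SE 0.50; adjusted p = 0.117, edgeR).

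Most differences were small, and most were bounded. The 95% interval of the fold change lay within 2-fold in either direction for 17994 of the 19727 genes (91.2%), and for 99.4% of the 7727 genes with a mean of at least 10 CPM. It lay within 1.5-fold for 68.0% of all genes and 95.7% of those at 10 CPM or more. The median absolute log2 fold change was 0.10 with a median SE of 0.16. An estimate beyond 2-fold was found for 0.345% of genes, against 4.31% between axenic and conventional heads in the same fit. For 4 genes the whole interval lay beyond 2-fold.

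**Figure D2:**
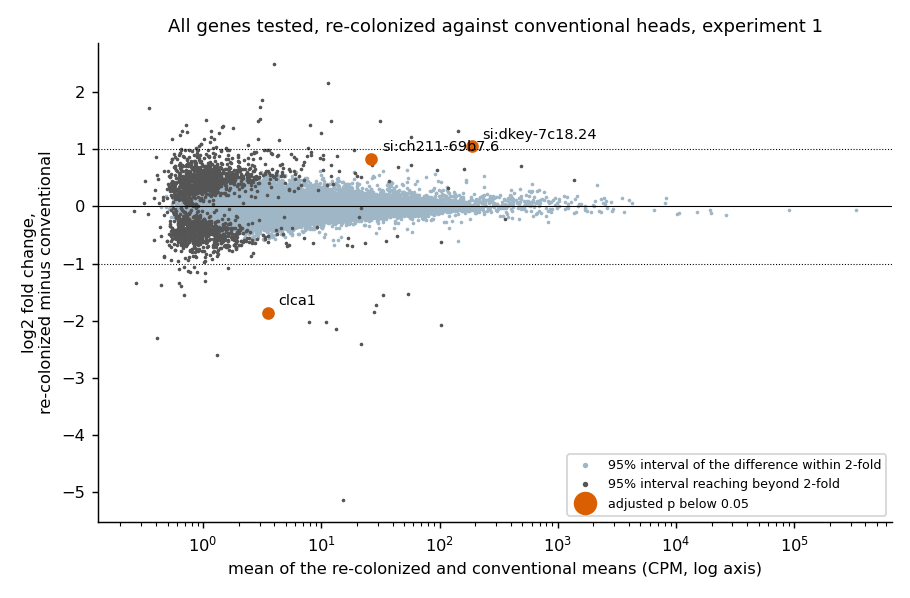
Log2 fold change, re-colonized minus conventional, of every gene tested in experiment 1 against its mean CPM (log axis), with dotted lines at 2-fold; pale points have a 95% interval within 2-fold and dark points do not. The 3 called genes are marked, and dark points thin out towards high CPM.

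Genes that differ between axenic and conventional heads were examined as sets chosen from experiment 2 alone, which shares no library with experiment 1. There, 1237 genes (6.13%) were called between axenic and conventional heads, 433 lower and 804 higher in axenic heads. Of the 433, 421 were tested in experiment 1. Their median log2 fold change between re-colonized and conventional heads was 0.01, beside 0.00 over all genes tested, with 220 above 0 and 201 below. None was called (edgeR). At an unadjusted p below 0.05, 31 were higher and 10 lower in re-colonized heads, beside 542 and 403 of all 19727 genes. The interval lay within 2-fold for 372 (88.4%), beside 91.2% of all genes. The median of the same genes between axenic and conventional heads of experiment 1 was -0.43, and 393 of them were again lower in axenic heads. Of the 804 genes higher in axenic heads, 761 were tested in experiment 1, with a median of 0.04 between re-colonized and conventional heads and 0.67 between axenic and conventional heads. None of these was called either (edgeR; 24 higher and 9 lower at an unadjusted p below 0.05), and 673 had an interval within 2-fold. Over both sets the library values of the colonized groups overlapped each other and not those of axenic heads. Other settings called at most 3 of the genes lower in axenic heads and at most 1 of those higher.

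**Figure D3:**
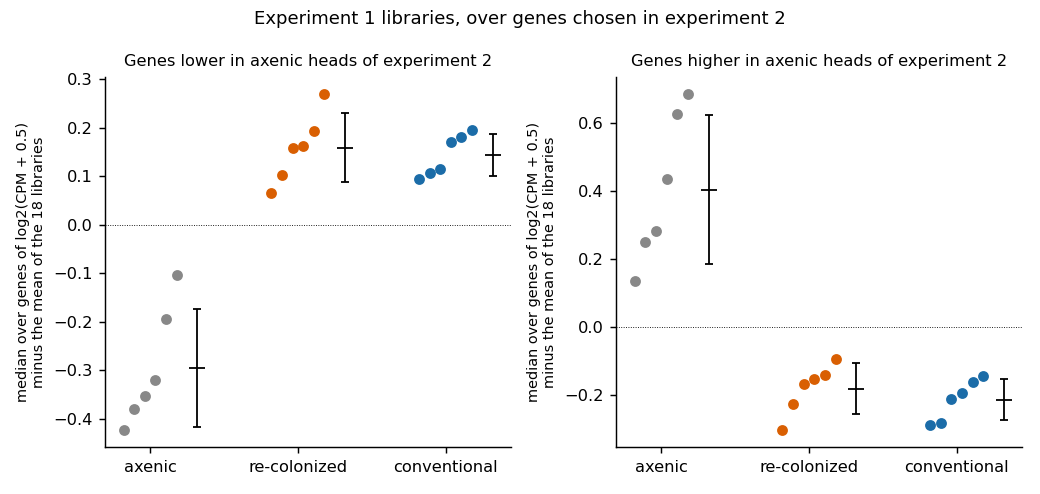
One value per library of experiment 1: the median over genes of log2(CPM + 0.5) minus each gene's mean over the 18 libraries, for genes called lower (left) or higher (right) in axenic heads of experiment 2; bars give the mean ± SD. For the lower set, re-colonized libraries sit between 0.07 and 0.27, conventional ones between 0.09 and 0.20, and axenic ones between -0.42 and -0.10.

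In the set lower in axenic heads, estimates between re-colonized and conventional heads ran from -0.645 (arf4b) to 2.17 (nos2a). Those of the set higher in axenic heads ran from -0.892 (BX248324.1) to 1.25 (ercc6l). The single genes given next were chosen after their values were seen, as examples near the conventional level. The growth-restraining gene ddit4, an inhibitor of mTOR signalling, averaged 420.5 ± 104 CPM in re-colonized and 420.8 ± 50.5 CPM in conventional heads (SD, n = 6 each), with 199 in axenic heads. Its re-colonized libraries ran from 299.5 (G) to 569.9 (F) and its conventional ones from 373 (C) to 507 (A), so the conventional range lay inside the re-colonized one. The stress gene sesn1 averaged 379 and 374 CPM in re-colonized and conventional heads, against 268 in axenic ones. For srebf1, the regulator of lipid synthesis, the means were 102 ± 12.5 and 101 ± 6.92 CPM, with 61.1 in axenic heads, and the 95% interval of the log2 fold change ran from -0.24 to 0.25. The glucocorticoid-responsive fkbp5 stood at 165 and 152 CPM, against 96.5 in axenic heads.

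Genes of tissue growth, which are high in axenic heads, were likewise near their conventional level in experiment 1. The fibrillar collagen gene col2a1a ran from 120 to 206 CPM in re-colonized and from 123 to 154 CPM in conventional libraries, with an axenic mean of 662 CPM. Its log2 fold change was 0.20, with a 95% interval from -0.12 to 0.52. The estimates of col10a1a, a marker of hypertrophic cartilage and bone, of col11a2 and of the connective tissue collagen col6a3 were 0.20, 0.05 and 0.08. Cartilage matrilin matn1 was at 0.01 and the enamel gene enam, a low gene of 1.38 CPM in conventional heads, at 0.36 with an interval from -0.42 to 1.13. Across the cartilage and bone list, 33 of 51 tested genes were above 0, the median was 0.03 and none was called, while the median between axenic and conventional heads was 0.72. The dividing-cell gene mki67 averaged 5.57 and 5.34 CPM in re-colonized and conventional heads and the replication gene mcm5 3.23 and 2.67 CPM. In the cell cycle list, 30 of 62 genes were above 0, the median was -0.01 and none was called. The interval lay within 2-fold for 37 of the 62, beside 91.2% of all genes, so this list was less well bounded. Its median between axenic and conventional heads was 1.09, but its library values in axenic heads ran from -0.37 (H) to 1.07. Axenic H thus lay inside the conventional range of -0.397 to -0.002. Experiment 2 put col2a1a, col10a1a, col11a2, col6a3, matn1 and enam at 0.32, 0.60, 0.60, 0.83, -0.37 and 0.11. They were at 0.63, 0.96, 0.89, 1.02, -0.16 and 0.43 without re-colonized libraries 1 and 7 there. Unadjusted p-values of col6a3 were 0.0111 and 0.00364 in the same order (edgeR). Cartilage, extracellular matrix and cell cycle list medians were -0.02, 0.13 and 0.05 there, and 0.13, 0.27 and 0.16 without these libraries. None of these genes passed the adjusted threshold (edgeR).

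Most lipid genes were also near their conventional level in experiment 1, some with wide intervals. The sterol synthesis genes hmgcra and cyp51 stood at 10.1 and 5.87 CPM in re-colonized heads, 10.0 and 4.82 CPM in conventional heads and 35.1 and 33.7 CPM in axenic heads. Their log2 fold changes were 0.01 and 0.28, with intervals from -0.71 to 0.72 and from -0.61 to 1.18. The lipase inhibitor gene angptl4 averaged 8.91 ± 3.203 and 7.21 ± 0.753 CPM (SD, n = 6 each), against 40.8 in axenic heads, with a log2 fold change of 0.31 (interval -0.08 to 0.69). Fatty acid importer cpt1ab was at -0.09. The lipoprotein gene apobb.2 was too low for a bound in colonized heads, with an interval from -1.10 to 2.62. Over the lists, 30 of 40 cholesterol genes were above 0 with a median of 0.08, and 26 of 44 fatty acid oxidation genes with a median of 0.02. None was called. Estimates of the cholesterol list ran from -1.14 (mvk) to 0.42 (ldlrb), and 33 of its 40 intervals lay within 2-fold. At an unadjusted p below 0.05, 1 of them was higher and 2 were lower (edgeR). The liver fatty acid binding protein fabp10a averaged 116.5 ± 40.2 CPM in re-colonized, 75.2 ± 22.7 in conventional and 222 in axenic heads. Its estimate of 0.63 (SE 0.21) did not pass (adjusted p = 0.905, edgeR), and the other liver gene tfa was at 0.13. In experiment 2 hmgcra, cyp51, angptl4, cpt1ab, apobb.2 and fabp10a were at 0.10, 0.53, -0.13, -0.15, 1.29 and 0.58. Without re-colonized libraries 1 and 7 there, they were at 0.22, 0.73, -0.31, -0.19, 1.73 and 0.92. Of the liver genes, tfa was at -0.87 in experiment 2 (unadjusted p = 0.00707, edgeR) and at -0.74 without these 2 libraries. None passed the adjusted threshold with edgeR.

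The antigen presentation, lymphocyte and thymus, macrophage and interferon lists had the 4 highest medians of the 51 lists. No member was called by edgeR; DESeq2 called cd74a (adjusted p = 0.0455), which is in both the antigen presentation and the macrophage list. Other immune lists were nearer 0, with medians of 0.05 for neutrophil markers, 0.03 for toll-like receptor signalling (16 of 23 above 0) and -0.03 for antibacterial defence (8 of 17). The antigen presentation list had a median log2 fold change of 0.38 in re-colonized heads, with 14 of 16 tested genes above 0 and 7 of 16 at an unadjusted p below 0.05, all higher. The lymphocyte and thymus list was at 0.30 (13 of 15 above 0), macrophages and microglia at 0.24 (29 of 32), and the interferon response at 0.23 (17 of 22). Over all genes, 10001 of 19727 were above 0, and 542 were higher at an unadjusted p below 0.05. In a bulk sample, more cells of a type and more RNA per cell cannot be told apart. The library values of the antigen presentation list, taken as the median over members of log2(CPM + 0.5) around each gene's mean, ran from 0.12 to 0.46 in re-colonized and from -0.19 to 0.24 in conventional libraries. Re-colonized E, the lowest of its group, lay below conventional B, C and H, and the other five re-colonized libraries lay above all conventional ones.

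Within antigen presentation, cd74a, the invariant chain that escorts class II molecules, held 2.65 to 4.71 CPM in re-colonized libraries (median 3.46) and 1.28 to 2.27 CPM in conventional ones (median 1.88). The groups did not overlap, and axenic heads averaged 1.68 CPM. Its log2 fold change was 0.94 (SE 0.21; adjusted p = 0.272, edgeR). The class I light chain b2m ran from 8.62 to 18.03 CPM (median 13.7) against 3.29 to 11.9 (median 6.90), with re-colonized D highest and conventional A lowest, an estimate of 0.90 (SE 0.23) and an adjusted p = 0.511 (edgeR). Its relative b2ml was at 0.24, the class I heavy chain mhc1zba at 0.39, the lysosomal thiol reductase ifi30 at 0.45 and the immunoproteasome gene psmb8a at 0.63. In experiment 2 the list median was -0.07, with b2m at 0.30 and cd74a at -0.07.

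Macrophage genes were mostly above 0, and edgeR called none of them. The perforin-like gene mpeg1.2 ran from 12.7 to 42.1 CPM in re-colonized (median 20.9) and 8.42 to 27.21 CPM in conventional libraries (median 14.8), an estimate of 0.58. Its relative mpeg1.1 was at 0.44, the growth factor grn2 at 0.44, the leukocyte actin regulator coro1a at 0.35, the receptor csf1ra at 0.06 and the scavenger receptor marco at 0.16. The macrophage marker mfap4 lay on the other side of 0, at -0.86. It held 0.466 to 4.94 CPM in re-colonized libraries (median 1.13) and 2.59 to 4.16 CPM in conventional ones (median 3.18); re-colonized B stood above all conventional libraries and the other five below all of them. The lysosomal protease ctsl.1 held 21.6 to 51.9 CPM against 14.2 to 24.4, with 8.55 in axenic heads and an estimate of 0.72 (SE 0.16; adjusted p = 0.272 in edgeR and 0.0454 in DESeq2), and the LPS-receptor relative cd180 held 3.59 ± 0.795 against 1.83 ± 0.524 CPM (SD, n = 6 each). Neutrophil genes were nearer 0: the peroxidase mpx was at -0.10, lysozyme lyz at 0.23, the protease mmp9 at -0.13 and the NADPH oxidase subunit ncf1 at -0.33, and 14 of 20 listed genes were above 0 with a median of 0.05. Among lymphocyte genes, the thymocyte recombinase rag1 was at 0.30 and the transcription factor runx3 at 0.33.

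Genes near silent in axenic heads varied widely among re-colonized pools. Inducible nitric oxide synthase nos2a held 47.8, 30, 2.1, 10.9, 6.59 and 15.6 CPM in re-colonized libraries B, D, E, F, G and H. Conventional libraries A, B, C, F, G and H held 0.241, 10.6, 1.06, 1.01, 2.19 and 9.57 CPM, and axenic libraries at most 0.328. The groups overlapped, with re-colonized B and D highest and E lowest, and the log2 fold change of 2.17 (SE 0.59) did not pass (adjusted p = 0.643, edgeR). In experiment 2 the estimate had the other sign, -3.15 with an unadjusted p = 0.000367; conventional library 7 held 71.9 CPM there and the other conventional ones 0.712 to 15.9, against 0.93 to 2.5 in re-colonized libraries. The test of the difference between experiments gave 5.33 on the log2 scale with an adjusted p = 0.118 for nos2a in edgeR. DESeq2 called nos2a in experiment 2 (-3.19; adjusted p = 0.0257) and for the difference (5.41; adjusted p = 0.0139).

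The gel-forming mucin gene muc5.1, on chromosome 25, held 261, 272, 61.3, 207, 250 and 180 CPM in re-colonized libraries B, D, E, F, G and H and 60.5, 167, 100, 62.6, 35.9 and 64.6 CPM in conventional libraries A, B, C, F, G and H. Re-colonized E sat at the conventional level and conventional B approached the re-colonized one. The estimate was 1.33 (SE 0.32; adjusted p = 0.44, edgeR), with an adjusted p = 0.0237 when conventional library B was left out and a range from 0.00353 to 0.979 over all settings. Its relative muc5.2, next to it on the same chromosome, held 7.14 to 23.2 CPM against 1.29 to 6.73, without overlap, an estimate of 1.43 (SE 0.36; adjusted p = 0.511, edgeR). In experiment 2 both were near 0, at 0.19 and 0.06.

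Some uncharacterized genes, like nos2a, were nearly silent in axenic heads. Of these, zgc:172053 held 6.91 (E) to 91.6 CPM (D) in re-colonized libraries with a median of 42.3, 6.81 to 40.6 CPM in conventional libraries, with B highest, and at most 1.3 CPM in axenic ones. Its estimate of 1.496 (SE 0.45) did not pass (adjusted p = 0.798, edgeR), and in experiment 2 it was -2.44 with an unadjusted p = 0.000772. DESeq2 called zgc:172053 in experiment 2 (adjusted p = 0.0227) and for the difference between experiments (adjusted p = 0.0499). For si:ch211-39f2.3, re-colonized B was highest at 161 CPM and E lowest at 28.8, and conventional B stood at 115 against 13.4 to 26.5 CPM in the other five. Re-colonized E was the lowest of its group for nos2a, muc5.1, zgc:172053 and si:ch211-39f2.3. Other microbe-dependent enzymes were nearer 0: the epithelial itaconate gene irg1l at 0.45, its relative acod1 at -0.18, the superoxide producer nox1 at 0.04, the inflammation brake zc3h12a at 0.21 and nfkbiz at 0.19. The antiviral gene mxf was at 0.47. Without re-colonized library B the estimates of irg1l and mxf turned to -0.15 and -0.10, and without re-colonized library G that of acod1 turned to 0.03. Across settings nox1 ran from -0.18 to 0.14. The prostaglandin synthase ptgs2b was at 0.44. Of the 30 genes of acute inflammation, 24 were above 0 with a median of 0.10, which was 0.01 without re-colonized library B.

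Intestinal genes split in direction. In the intestine and mucosa list 18 of 35 tested genes were above 0, the median was 0.03, and the single called member was clca1. The enterocyte fatty acid binding protein fabp2 was at 0.12 and the microvillus protein vil1 at 0.05. Several other intestinal genes, chosen after their values were seen, had estimates below 0 that did not pass in edgeR. The microvillus cadherin CDHR2 held 8.95 to 12.5 CPM in re-colonized (median 11.2) and 14.2 to 20.0 CPM in conventional libraries (median 16.1), without overlap, and axenic heads averaged 10.6 CPM. Its log2 fold change was -0.59 (SE 0.13; adjusted p = 0.272 in edgeR and 0.0455 in DESeq2). The aminopeptidase genes anpepb and enpep had estimates of -0.69 and -0.58, with medians of 13.0 and 9.62 CPM in re-colonized, 18.9 and 15.3 in conventional and 4.83 and 7.76 in axenic heads. For enpep, 4 of 6 conventional libraries lay above all re-colonized ones.

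The sodium-glucose transporter slc5a1 was at -0.40, the peptide transporter slc15a1b at -0.29, the chitinase chia.1 at -0.62, the enteropeptidase tmprss15, which activates trypsin in the gut, at -0.69 and the transmembrane mucin muc13b at -0.53. The bile-acid-responsive repressor nr0b2a was at -0.45, while the abundant pancreatic proteases prss1 and ctrb1 were at 0.13 and 0.02. In experiment 2 these estimates were -0.82, -0.42, -1.10, -1.02, -0.92 and -0.97 for slc5a1, slc15a1b, chia.1, tmprss15, muc13b and nr0b2a. All of them except slc15a1b had an unadjusted p below 0.05 in both experiments, and none passed the adjusted threshold in either with edgeR. Of all 18768 genes tested in both, 25 were lower at that level in both. Because these genes were chosen after their values were seen, their agreement is not a test of intestinal genes as a set. CDHR2, anpepb and enpep were at -0.57, -0.72 and -0.49 in experiment 2. Without re-colonized libraries 1 and 7 of experiment 2, slc5a1 was at -0.53 with an unadjusted p = 0.101 (edgeR). CDHR2, anpepb and enpep were then at -0.50, -0.42 and -0.19, with unadjusted p-values of 0.128, 0.423 and 0.558 (edgeR). Those of chia.1, tmprss15, muc13b and nr0b2a stayed below 0.05. The intestine and mucosa list had a median of -0.31 in experiment 2 and of -0.07 without these 2 libraries. How much foregut each pool held was not measured.

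**Figure D4:**
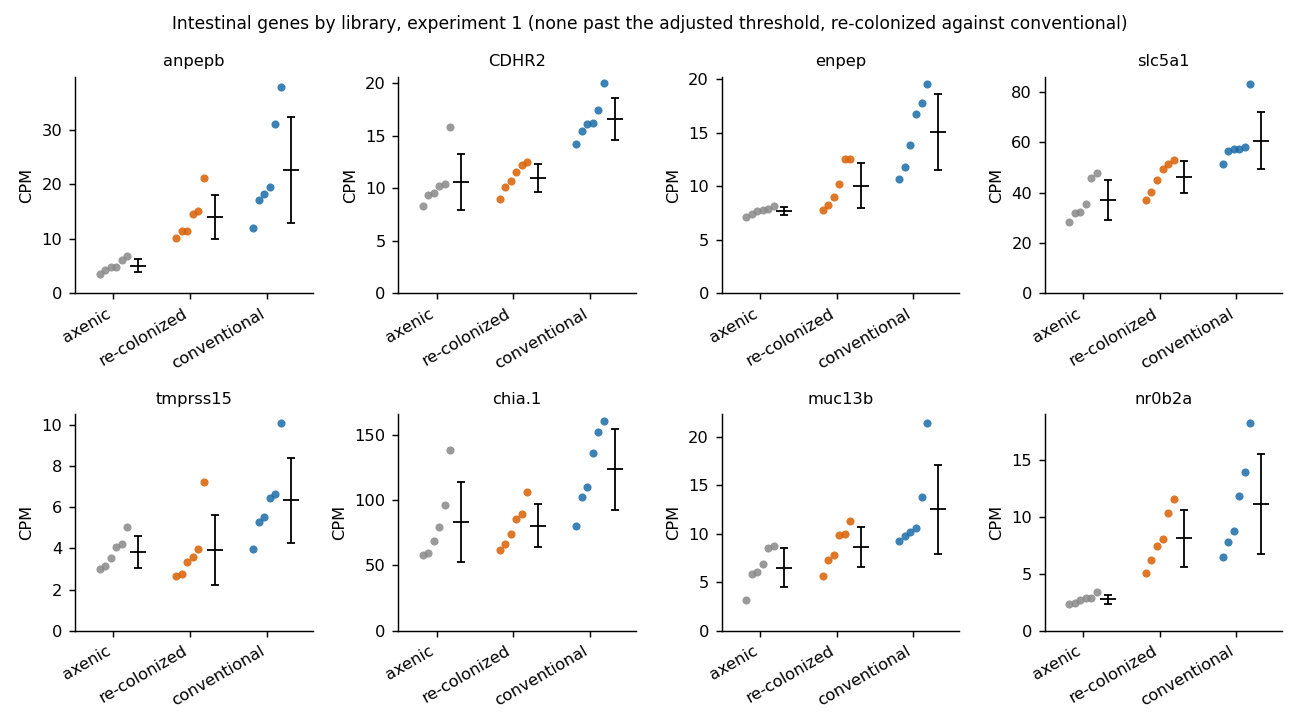
CPM of 8 intestinal genes in each library of experiment 1 by group; points are libraries and bars give the mean ± SD. Conventional means are the highest of the 3 groups in every panel, and CDHR2 is the panel in which re-colonized and conventional points do not overlap.

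Skin and muscle lists lay above 0 in experiment 1. For keratins and skin, 35 of 44 genes were above 0 and the median was 0.22. Beside 542 higher and 403 lower of all 19727 genes at an unadjusted p below 0.05, 11 of the list were higher and 2 lower. Cell junction genes were among the higher ones: the envoplakin gene evpla held 33.0 to 55.1 CPM against 20.9 to 33.6 (estimate 0.61), the desmosomal cadherin dsg2.1 47.5 to 84.3 against 35.8 to 56.0 (0.64), and the epithelial adhesion gene epcam 92.2 ± 5.28 against 76.0 ± 6.98 CPM (SD, n = 6 each; 0.28), without overlap. Keratins went both ways, with krt5 at 0.44, krt4 at 0.09 and the type I keratins cyt1 and cyt1l at -0.61 and -0.67. For cyt1, re-colonized libraries held 72.6 to 160.4 CPM, conventional ones 139 to 206 CPM and axenic ones 442 to 549.8 CPM. The calcium-binding gene icn2 was at 0.84, with 13.2 CPM in re-colonized, 7.40 in conventional and 23.1 in axenic heads. Of ionocyte, gill and mucous genes, 24 of 31 were above 0 with a median of 0.13, among them the chloride cotransporter slc12a10.2 at 0.43. In experiment 2 the median was -0.21 for keratins and skin (17 of 44 above 0) and -0.21 for ionocyte, gill and mucous genes (11 of 31). There evpla, dsg2.1, epcam and slc12a10.2 were at -0.28, -0.41, -0.15 and -0.27, and icn2 and krt5 at 0.16 and 0.03. Without re-colonized libraries 1 and 7 of experiment 2 the 2 medians were -0.185 and -0.225.

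In the skeletal muscle list 67 of 89 genes were above 0, the median was 0.12 and none was called. At an unadjusted p below 0.05 there were 17, all higher, beside 542 higher among all 19727 genes. The fast troponin tnni2a.4 held 18.8 to 56.8 CPM in re-colonized (median 26.2) and 13.8 to 24.0 CPM in conventional libraries (median 19.6), with re-colonized D and H far above the rest, and an estimate of 0.78. The muscle calcium buffer pvalb1 was at 0.53, the actin actc1b at 0.37, the creatine kinase ckma at 0.28 and the myosin light chain mylpfa at 0.28. Axenic heads had still higher means, 443 CPM for pvalb1 against 282 and 196 in re-colonized and conventional heads.

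Brain and eye lists had medians close to 0. They were -0.06 for glutamate signalling (15 of 53 above 0), -0.07 for GABA and glycine signalling (13 of 44), -0.04 for presynaptic release (11 of 55), -0.03 for voltage-gated ion channels (26 of 75), -0.01 for monoamine signalling (26 of 54), 0.03 for neuropeptides of feeding and arousal (22 of 39) and 0.03 for myelin and oligodendrocytes (18 of 33). No member of these lists was called (edgeR), and each list had at most 2 genes lower and at most 2 higher at an unadjusted p below 0.05. Glutamate signalling was at 0.32 in experiment 2 (42 of 53 above 0), and GABA and glycine signalling at 0.31 (34 of 44). Presynaptic release was at 0.26 there (45 of 55), ion channels at 0.49 (69 of 75) and monoamine signalling at 0.19 (36 of 52). Neuropeptides and myelin were at 0.02 and 0.05. Without re-colonized libraries 1 and 7 of experiment 2, these medians were 0.32, 0.13, 0.16, 0.34, 0.03, -0.005 and 0.01 in the same order. The synaptic gene snap25a averaged 84.8 ± 6.31 and 93.8 ± 4.32 CPM in re-colonized and conventional heads (SD, n = 6 each), an estimate of -0.15 with a 95% interval from -0.30 to 0.01. The glutamate receptor gria1b was at -0.23, the serotonin transporter slc6a4a at 0.08, the serotonin synthesis gene tph2 at 0.33 and the dopamine synthesis gene th at 0.27. The glial gene gfap was at 0.27. In experiment 2 gria1b was at 0.70 (unadjusted p = 0.0119, edgeR) and snap25a at 0.20, neither past the adjusted threshold with edgeR. Activity-induced genes had a median of -0.08 with 9 of 38 above 0, among them fosab at -0.34 and npas4a at -0.44, whose means of 49.2, 66.7 and 37.4 CPM in re-colonized, conventional and axenic heads overlapped between the colonized groups. Growth hormone gh1 was at -0.15.

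Photoreceptor genes, which are high in axenic heads, were near their conventional level in re-colonized heads of experiment 1. The red cone opsin opn1lw2 ran from 20.08 to 34 CPM in re-colonized and 20.0 to 25.4 CPM in conventional libraries, against an axenic mean of 112 CPM. The green cone opsin opn1mw1 had an estimate of -0.10 (interval -0.37 to 0.17), the cone transducin gnat2 -0.22 and rho 0.21. Over the phototransduction list 21 of 56 genes were above 0 with a median of -0.02, and in the lens list 9 of 39 with a median of -0.08 and cryaa at -0.07. In experiment 2, opn1mw1 and opn1lw2 were at 0.87 and 0.53 (unadjusted p = 0.00459 and 0.129, edgeR), and gnat2 and rho at -0.18 and -0.56. Without re-colonized libraries 1 and 7 of experiment 2, opn1mw1 and opn1lw2 were at 0.96 and 0.82 (unadjusted p = 0.00267 and 0.00935, edgeR). The estimates of gnat2 and rho were then -0.15 and -0.33. The lens list was at -0.53 in experiment 2 (2 of 38 above 0) and at -0.40 without these 2 libraries. Its gene cryaa was at -0.48 in experiment 2 (unadjusted p = 0.0165, edgeR) and at -0.38 without them. The phototransduction list was at -0.03 and -0.14 in the same order. None of these genes passed the adjusted threshold in experiment 2 with edgeR.

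**Figure D5:**
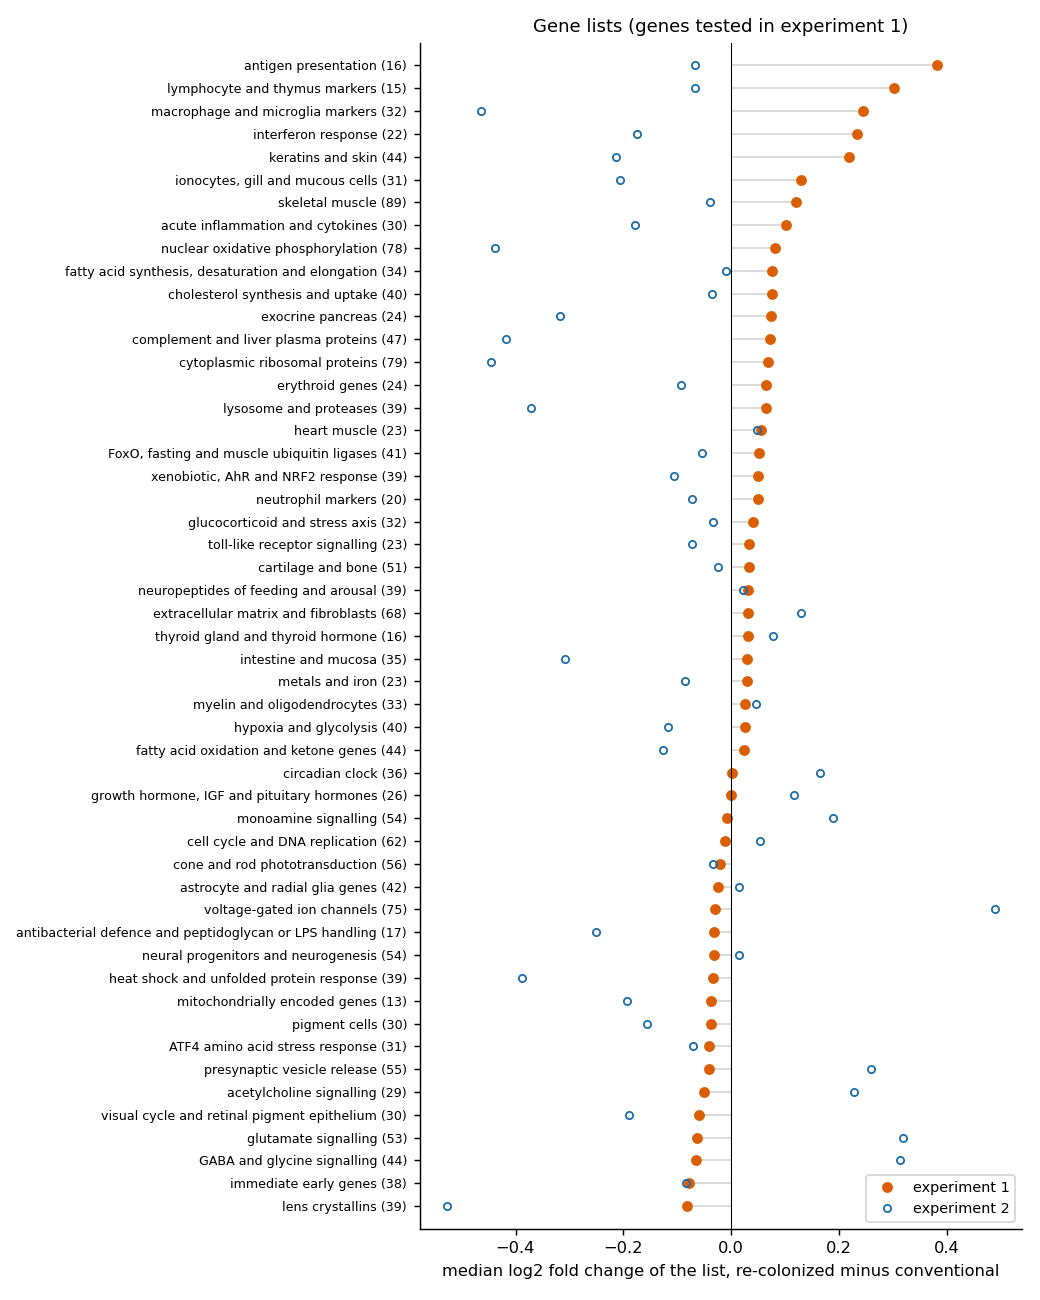
Median log2 fold change, re-colonized minus conventional, of each of 51 gene lists in experiment 1 (filled) and experiment 2 (open), with the number of genes tested in experiment 1 in brackets. Experiment 1 medians run from -0.08 for lens crystallins to 0.38 for antigen presentation, and for many lists the open point lies on the other side of 0.

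Experiment 2 was read as a second measurement of the same contrast, with larger error. No gene of 20169 was called there (0%; edgeR), 2751 had an unadjusted p below 0.05 (13.6%), and DESeq2 and limma voom called 118 each. Re-colonized libraries 1 and 7 stood apart there, with TMM factors of 1.549 and 1.376 against 0.86 to 1.16 for the other 5 re-colonized libraries of that experiment, and without them 1286 genes had an unadjusted p below 0.05. The median SE was 0.26 against 0.16 in experiment 1, and 63.0% of intervals lay within 2-fold. Of 885 genes with an unadjusted p below 0.05 in experiment 1 that were tested in both, 346 had the same sign in experiment 2 (39.1%), beside 44.8% of all 18768 genes tested in both. For 133 genes the unadjusted p was below 0.05 in both, 15% of the experiment 1 genes and 5.03% of the experiment 2 genes. Of these, 25 were lower in both, 8 higher in both, 65 higher in experiment 1 and lower in experiment 2, and 35 the reverse. The difference of the contrast between experiments was called for 0 of 21208 genes (0%; edgeR, 36 libraries), with 2607 at an unadjusted p below 0.05 (12.3%); DESeq2 called 36 and limma voom 184.

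List medians also differed in sign between experiments. The macrophage list was at 0.24 in experiment 1 and -0.46 in experiment 2, ribosomal proteins at 0.07 and -0.45, nuclear oxidative phosphorylation at 0.08 and -0.44, and voltage-gated ion channels at -0.03 and 0.49. Without re-colonized libraries 1 and 7 of experiment 2 these medians were -0.37, -0.23, -0.22 and 0.34 there. Among single genes, mpeg1.2 went from 0.58 to -1.11, ctsl.1 from 0.72 to -0.91 and marco from 0.16 to -1.01, with unadjusted p-values of 0.00928, 0.00365 and 0.00286 in experiment 2. The difference itself was not called by edgeR for these genes; it passed for ctsl.1 in DESeq2 (adjusted p = 0.0139) and limma voom (0.0352), and for marco in limma voom (0.0393). No gene was called in the same direction in both experiments. The experiments differ in RNA selection, extraction site and libraries together, and these cannot be told apart.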

How the data were processed

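The authors deposited 1 table of estimated counts per gene for each experiment. Per the submitters' processing notes, bcl2fastq, STAR 2.5.3a and Partek 8.0.19.0428 were used with GRCz11; the order, settings and gene annotation are not given in the sources. Of the deposited expected counts of experiment 1, 9.44% were fractional by over 0.01, and all were rounded before testing, as the design planned for estimated counts. The 18 libraries of experiment 1 were fitted with edgeR 4.0.16 in R 4.3.3 (filterByExpr, TMM, quasi-likelihood test, group means), with Benjamini-Hochberg adjustment over 19727 genes and a threshold of 0.05. Experiment 2 was fitted in the same way, and the difference between experiments in a fit of all 36 libraries. CPM were scaled by TMM-adjusted library sizes, and intervals are 95%. The fits were tested on simulated data.

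Alternatives were DESeq2 1.42.0, limma 3.58.1 voom, other scaling and filters, a fit of the compared groups alone, a replicate block, no structural RNAs, and leaving out libraries. Genes to name were the called genes with the largest changes and smallest adjusted p, called members of lists, and genes called in both experiments or for their difference; the rule asked for a proper symbol, which clca1 alone met, and the clone-named pair are named as the other called genes. The members and the 51 gene lists were chosen with earlier results of these data known. Of 2275 listed symbols, 2046 were in the experiment 1 table and 1886 were tested. No sequence is printed, since none was used here.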

Additional observations from a re-analysis of the deposited data

Results flagged for a closer look

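Among 212 sets of 6 library values (106 genes in the re-colonized and in the conventional group of experiment 1), 15 held a library far from the others of its group by Dixon's criterion, which chance meets in about 1 group in 20. Of these, 4 were in re-colonized library B, 3 in re-colonized F, and 2 each in conventional B, C, G and H.

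In re-colonized library B, tmprss15 stood at 7.20 CPM, mfap4 at 4.94 CPM and b2ml at 173 CPM, above the other re-colonized libraries, and fabp2 at 30.3 CPM, below them. In re-colonized library F, cpt1ab was low at 4.08 CPM, and CT583728.24 and BX537263.3 were high at 3.14 and 141 CPM.

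Conventional library C was high for slc5a1 at 83.2 CPM and for muc13b at 21.4 CPM. Conventional library H was high for irg1l at 80.5 CPM and dsg2.1 at 56.0 CPM, and conventional library B for mki67 at 8.95 CPM and si:ch211-39f2.3 at 115 CPM. Conventional library G held 177 CPM of CT583728.24 and 867 CPM of BX537263.3.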

How the results depend on the processing

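Against 3 genes called in experiment 1 (2 higher, 1 lower), DESeq2 called 10 (7 higher, 3 lower). limma voom, DESeq2 size factors, no filter, a mean of at least 1 CPM, a fit of the compared groups alone and leaving out structural RNAs each called the same 3 genes. Leaving out each library in turn gave 0 to 8 called genes, 0 to 6 higher and 0 to 2 lower. Without re-colonized library B and conventional library B together, an alternative chosen after seeing the data, 7 were called, 6 of them higher. In experiment 2, against 0 called genes, DESeq2 and limma voom called 118 each and leaving out each library gave 0 to 1. For the difference between experiments, against 0, DESeq2 called 36 and limma voom 184, and 1 gene was called without re-colonized libraries 1 and 7 of experiment 2.

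With the replicate letter or number as a block, 6 genes were called in experiment 1 (6 higher, 0 lower; si:dkey-7c18.24 was the 1 shared with the 3), 2 in experiment 2 and 2 for the difference. clca1 and si:ch211-69b7.6 had adjusted p-values of 0.306 and 0.223 under the block, and nos2a and zgc:172053 were called in experiment 1 at 0.0297 and 0.0496. The labels do not say that letters or numbers pair libraries, and deviations of same-lettered libraries correlated at -0.00294 to 0.268 over 4 pairs in experiment 1 and those of same-numbered ones at -0.275 to 0.514 over 7 pairs in experiment 2. The cause of these changes was not tested. Over all settings the log2 fold change stayed between -2.01 and -1.69 for clca1, 0.76 and 0.94 for si:ch211-69b7.6 and 0.96 and 1.25 for si:dkey-7c18.24, with adjusted p-values of 7.94e-07 to 0.306, 2.08e-05 to 0.223 and 1.72e-05 to 0.0602. Small estimates of vil1, ctrb1, tfa, mpx, mmp9, cpt1ab, hmgcra, srebf1, col11a2, matn1, mki67, cryaa, elavl3, slc6a4a, ddit4, sesn1, fkbp5 and zc3h12a lay on the other side of 0 in at least 1 setting. So did the medians of the acute inflammation, antibacterial defence, toll-like receptor, intestine, cell cycle, circadian clock, phototransduction, visual cycle, fatty acid oxidation, glucocorticoid, growth hormone, heart muscle, heat shock, metals, mitochondrially encoded, monoamine, myelin, neuropeptide and thyroid lists.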

Other observations

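Of 55 small nucleolar RNA genes tested in experiment 1, 2 had an estimate above 0 between re-colonized and conventional heads. Their median log2 fold change was -0.26 and none was called (edgeR). An unadjusted p below 0.05 was found for 12 of them, beside 945 of all 19727 genes (4.79%). Long intergenic RNA genes had a median of -0.01 over 358 genes. Among further genes whose groups did not overlap and that were not called, the cadherin gene cdh29 held 6.22 to 10.6 CPM in re-colonized libraries and at most 5.13 CPM in conventional ones, and hexdc held 1.21 to 2.28 CPM against 3.39 ± 0.795 CPM (SD, n = 6).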
